A study of Rattus norvegicus with 60 samples.

Results

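Akr1b1 and 6 other enzymes that handle ethanol, acetaldehyde or related aldehydes (Akr1a1, Aldh2, Aldh1a1, Aldh9a1, Adh5 and Cat) were followed in 5 brain regions of 2 rat lines. All probe sets that carry one of these gene symbols in the platform annotation were taken, which gave 8 of 31042 probe sets and 7 of 14217 genes. Akr1b1 had 2 probe sets and the other 6 genes 1 each. RNA came from accumbens, amygdala, frontal cortex, hippocampus and striatum of 6 adult NP.P congenic rats and 6 adult NP rats, so that each region held 6 congenic and 6 NP arrays, 60 in all. NP.P is a congenic line on the background of NP, a line bred for low voluntary alcohol drinking. It carries a segment of chromosome 4 from the alcohol-preferring line P, and the ends of that segment are not given in the sources used here. All rats were handled daily beforehand and kept with water and chow freely available, no ethanol exposure is named in the labels, and every array came from 1 animal.

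Ethanol is oxidised to acetaldehyde and acetaldehyde to acetate. In brain, catalase and cytochrome P450 enzymes are known for the first step and mitochondrial aldehyde dehydrogenase for much of the second, while the classical liver alcohol dehydrogenases are scarce. Aldo-keto reductases work the other way on aldehydes and reduce them to alcohols with NADPH. Akr1b1 is aldose reductase, which turns glucose into sorbitol in the polyol pathway and also reduces lipid-derived aldehydes.

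The values are log2 signals of Affymetrix probe sets, so a difference of 1 is a doubling. Arrays carry no count of reads, and 6 animals per line set the precision. For testing, probe sets with a mean of at least 7.68 over all arrays, the 40th percentile, were kept. These were 18625, and 7 of the 8 probe sets of the 7 genes were among them. A probe set was called when its adjusted p in limma, over all 18625, was under 0.05. Of the 60 arrays, 7 stood apart from the others of their labelled region (3 congenic and 4 NP). They were labelled accumbens congenic 9, amygdala congenic 3, hippocampus congenic 3, accumbens NP 8, amygdala NP 6, hippocampus NP 8 and hippocampus NP 11. Of the 7, 4 were closest to the profile of another region, as 2 pairs that each lay within 1 animal. In congenic 3 the array labelled amygdala was closest to hippocampus and the one labelled hippocampus to amygdala, and in NP 8 the array labelled accumbens was closest to hippocampus and the one labelled hippocampus to accumbens. The other 3 were closest to their labelled region. No array was relabelled, and the values of the members in accumbens, amygdala and hippocampus are given with all arrays and then without these 7. Medium spiny neuron markers, which define striatum and accumbens, had a median level over arrays of 12.34 in striatum, 11.74 in accumbens, 10.60 in amygdala, 9.09 in frontal cortex and 8.90 in hippocampus.

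Akr1b1 was the member that differed between the lines. The 7 genes were chosen from results of this same line comparison, so its values are a description and nothing is supported by them. Averaged over the 5 regions of each animal, probe set 1367734_at of Akr1b1 lay between 11.60 and 11.67 (median 11.62) in the 6 congenic rats and between 11.36 and 11.43 (median 11.40) in the 6 NP rats. All 6 congenic rats were above all 6 NP rats, and the share of all probe sets with such a separation was not computed. The means were 11.62 ± 0.03 in congenic rats and 11.39 ± 0.03 in NP rats (SD, n = 6 each). The difference was 0.23 ± 0.02 (SE; 95% interval 0.18 to 0.28), a level 1.18-fold higher in congenic rats. It was 1 of 7 tested members called in this comparison, in which 0.123% of all probe sets were called. By size alone it ranked 57 among the 18625 probe sets. Its standard error lay at the 3.12 percentile of all standard errors. Without the 7 arrays that stood apart the difference was 0.25 and was still called.

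Within each of the 5 regions the congenic mean of Akr1b1 was the higher one. In frontal cortex the values were 11.64 to 11.85 (median 11.78) in congenic rats and 11.32 to 11.48 (median 11.38) in NP rats, with no overlap. The difference there was 0.36 ± 0.05 (SE; 95% interval 0.26 to 0.46), or 1.29-fold, and it was called, as were 0.0537% of all probe sets in that region. In striatum the values were 11.22 to 11.47 (median 11.36) in congenic rats and 10.99 to 11.14 (median 11.03) in NP rats, again without overlap. The difference in striatum was 0.31 ± 0.05 (SE; 95% interval 0.20 to 0.42), or 1.24-fold, and it was called, against 0.0644% of all probe sets. The striatum call was lost when any 1 of 8 animals was left out (animals 2, 3, 6, 7, 9, 10, 11 and 12), while the difference stayed between 0.29 and 0.34 under all 19 alternatives run.

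In the other 3 regions the groups overlapped and Akr1b1 was not called. In accumbens the values were 11.42 to 11.63 (median 11.53) in congenic rats and 11.25 to 11.47 (median 11.34) in NP rats, a difference of 0.18 (95% interval 0.05 to 0.30). In amygdala they were 11.57 to 11.86 (median 11.77) in congenic rats and 11.51 to 11.64 (median 11.58) in NP rats, a difference of 0.17 (95% interval 0.05 to 0.28). In hippocampus they were 11.64 to 11.80 (median 11.75) in congenic rats and 11.52 to 11.67 (median 11.58) in NP rats, a difference of 0.15 (95% interval 0.05 to 0.25). These 3 intervals lie above 0, and 4, 5 and 4 of the 6 congenic arrays in accumbens, amygdala and hippocampus lay above every NP array. The shares of all probe sets called between the lines were 0.00537% in accumbens, 0.0322% in amygdala and 0.00537% in hippocampus. Without the arrays that stood apart the differences were 0.18 in accumbens, 0.20 in amygdala and 0.17 in hippocampus, and none of the 3 was called. In the plot of Akr1b1 by array, the separation of the lines in frontal cortex and striatum and the overlap elsewhere can be read off directly.

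**Figure D1:**
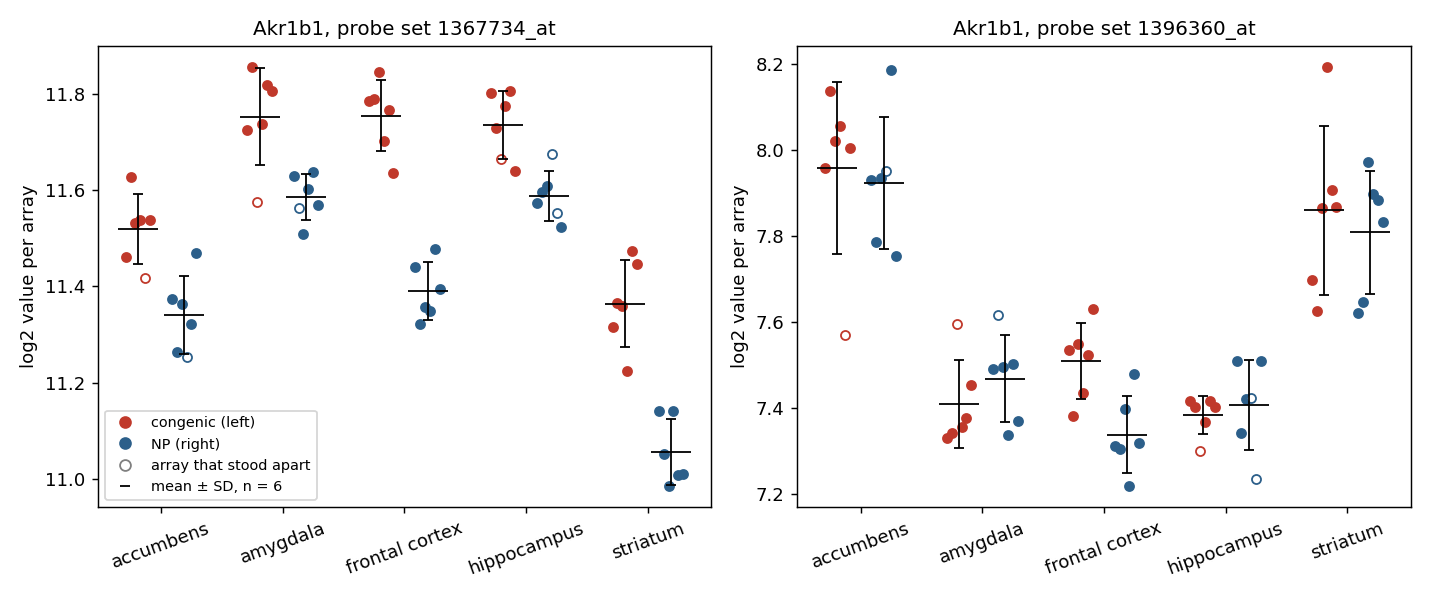
Log2 value of both Akr1b1 probe sets on each array (vertical axis, log2) by region, with congenic rats in red on the left and NP rats in blue on the right of each pair; bars are mean ± SD of 6 arrays and open points are the 7 arrays that stood apart. For 1367734_at the 6 congenic arrays lie above all 6 NP arrays in frontal cortex and striatum, and for 1396360_at the lines overlap in all 5 regions.

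The second Akr1b1 probe set, 1396360_at, had a mean of 7.61 over all arrays, just below the filter, and was not tested. Its mean over regions was 7.62 ± 0.06 in congenic rats and 7.59 ± 0.05 in NP rats (SD, n = 6 each), a difference of 0.03 with a 95% interval of -0.03 to 0.10. In frontal cortex it was 7.38 to 7.63 (median 7.53) in congenic rats and 7.22 to 7.48 (median 7.31) in NP rats, a difference of 0.17 (95% interval 0.05 to 0.29), with overlap. Its region pattern ran opposite to that of the first probe set: 0.42 above the other 4 regions in accumbens and 0.28 above them in striatum, and 0.21 to 0.26 below them in amygdala, frontal cortex and hippocampus. Over the 60 arrays the 2 probe sets correlated at -0.51, a description of arrays that share animals and regions. The 2 probe sets of Akr1b1 therefore disagree on the order of the regions, and the level of the gene is described below from 1367734_at.

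The other 6 genes did not separate the lines. Akr1a1, the aldehyde reductase that uses NADPH, averaged 13.45 ± 0.03 in congenic rats and 13.47 ± 0.02 in NP rats (SD, n = 6 each, mean over regions). Aldh2, the mitochondrial acetaldehyde dehydrogenase, averaged 9.92 ± 0.04 in congenic rats and 9.92 ± 0.04 in NP rats (SD, n = 6 each). Aldh9a1, which oxidises an aldehyde of the carnitine pathway, averaged 10.52 ± 0.04 in congenic rats and 10.54 ± 0.06 in NP rats. These 3 genes had line differences of -0.02, 0.01 and -0.02 with 95% intervals inside -0.09 to 0.06.

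Adh5, the glutathione-dependent formaldehyde dehydrogenase, averaged 11.04 ± 0.04 in congenic rats and 11.05 ± 0.01 in NP rats (SD, n = 6 each), a difference with a 95% interval of -0.07 to 0.04. Cat, the peroxisomal catalase that oxidises ethanol with hydrogen peroxide, averaged 11.42 ± 0.02 in congenic rats and 11.45 ± 0.01 in NP rats (SD, n = 6 each), a difference with a 95% interval of -0.08 to 0.01. Aldh1a1, a cytosolic dehydrogenase of retinaldehyde and acetaldehyde, averaged 9.76 ± 0.10 in congenic rats and 9.68 ± 0.11 in NP rats (SD, n = 6 each), and its 95% interval of -0.04 to 0.19 was the widest of the 7. Its line difference was 0.08 on all arrays and 0.04 without the arrays that stood apart. For all 6 genes the animals of the lines overlapped, and none was called in the mean over regions or in any region.

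In 3 single regions the interval of a member other than Akr1b1 lay on one side of 0 without a call. Aldh1a1 in amygdala was 9.68 to 10.17 (median 10.10) in congenic rats and 9.41 to 10.29 (median 9.67) in NP rats, a difference of 0.30 (95% interval 0.03 to 0.58), and 0.26 without the arrays that stood apart. The mean level of the medium spiny neuron markers in amygdala was 8.81 to 10.85 (median 10.35) in congenic rats and 10.28 to 12.03 (median 10.84) in NP rats, and 7 of 7 markers had a lower mean in congenic rats, with differences of -0.998 to -0.473, of which 0 were called. Without the arrays that stood apart these differences were -0.29 to -0.19. On all arrays the 7 meningeal genes tested had higher means in congenic amygdala, by 0.05 (Ogn) to 0.33 (Col3a1), and 0 were called. The part of either list in the Aldh1a1 value was not tested. Cat in frontal cortex was 11.03 to 11.48 (median 11.23) in congenic rats and 11.35 to 11.57 (median 11.42) in NP rats, a difference of -0.18 (95% interval -0.33 to -0.02). Cat in striatum was 11.21 to 11.37 (median 11.25) in congenic rats and 11.34 to 11.50 (median 11.36) in NP rats, a difference of -0.12 (95% interval -0.22 to -0.02). All of these groups overlapped. The plot of line differences sets these intervals beside those of Akr1b1.

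**Figure D2:**
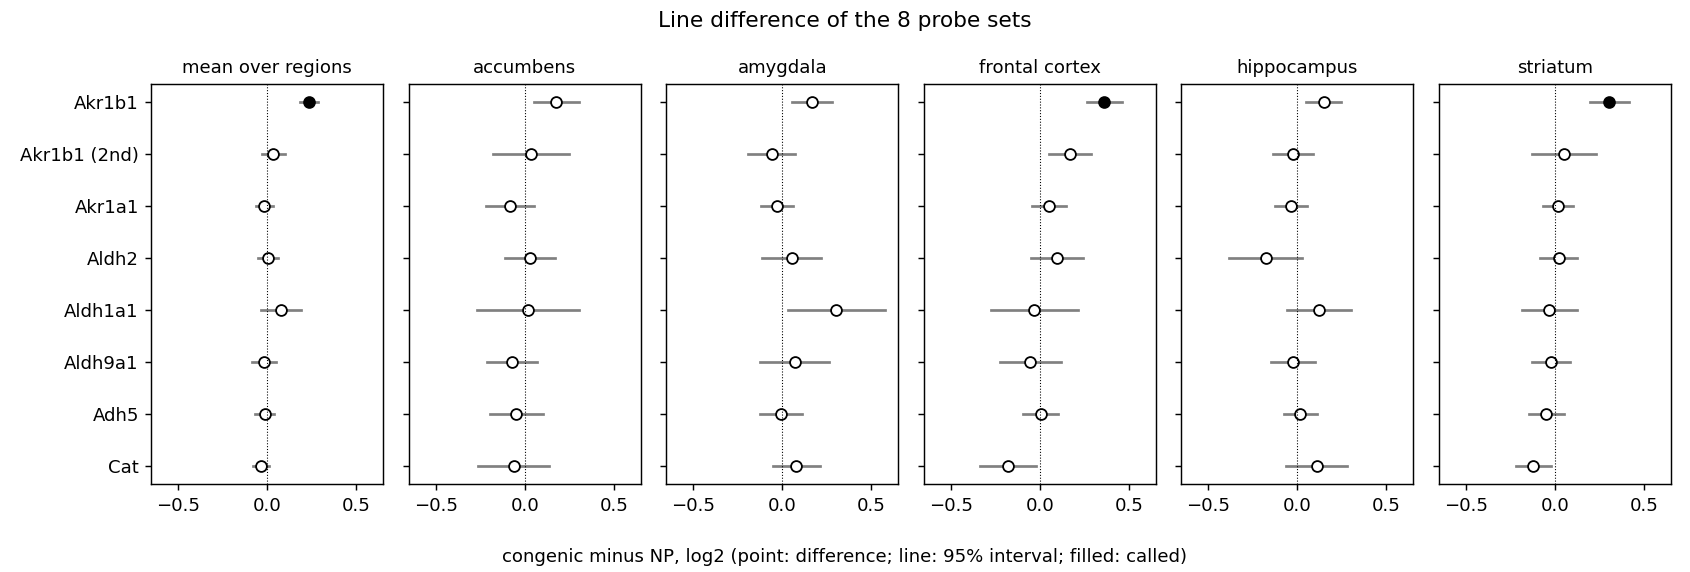
Congenic minus NP difference (horizontal axis, log2) of the 8 probe sets, as the mean over regions and in each of the 5 regions; points are differences, lines 95% intervals, filled points were called, and "Akr1b1 (2nd)" is 1396360_at. Filled points are Akr1b1 1367734_at in the mean over regions (0.23), frontal cortex (0.36) and striatum (0.31).

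Akr1b1 is on chromosome 4 in the GRCr8 gene order. The other 6 genes are on 6 different chromosomes (Aldh1a1 on chromosome 1, Adh5 on 2, Cat on 3, Akr1a1 on 5, Aldh2 on 12 and Aldh9a1 on 13), so Akr1b1 is the member that lies on the chromosome of the donor segment. It is number 148 of 590 measured genes on that chromosome, where measured means having a probe set that passed the filter. Its relatives Akr1b7 and Akr1b8 were below the filter and have no place in this order. Of its 5 measured neighbours on each side, Bpgm and Wdr91 were called in the mean over regions, where 0.123% of all probe sets were called. Bpgm, Plxna4, Slc35b4 and Cald1 had 2 tested probe sets each, and the one with the higher mean is given. Bpgm, which makes bisphosphoglycerate, averaged 12.08 in congenic rats and 11.94 in NP rats, a difference of 0.14 with no overlap. Wdr91, a regulator of endosomes, averaged 8.49 in congenic rats and 8.68 in NP rats, a difference of -0.19 with no overlap. Chchd3 (-0.17) and Cnot4 (0.11) also did not overlap between the lines but were not called. The share of all probe sets without overlap was not computed, so these separations are a description. Akr1b10, the next measured gene and a relative of Akr1b1, differed by -0.05 with overlap. The remaining 5 neighbours, Mkln1, Podxl, Plxna4, Slc35b4 and Cald1, differed by -0.05 to 0.08 with overlap. The neighbours thus went in both directions, as the plot in gene order shows.

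**Figure D3:**
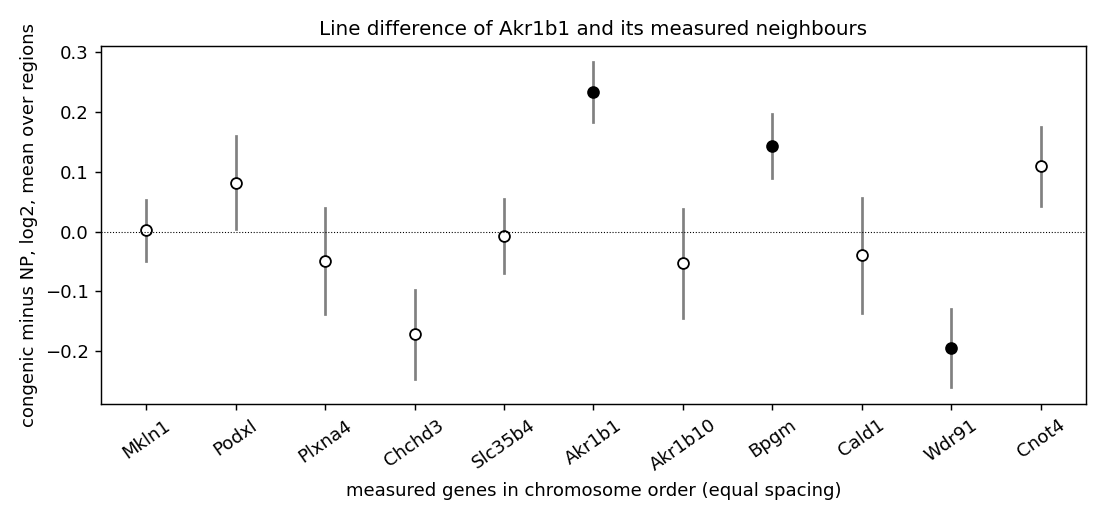
Congenic minus NP difference, mean over regions (vertical axis, log2), of Akr1b1 and the 5 measured genes on each side in the gene order of chromosome 4, at equal spacing; lines are 95% intervals and filled points were called. Akr1b1 (0.23) and Bpgm (0.14) are called higher in congenic rats and Wdr91 (-0.19) lower.

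With the region means subtracted, the genes whose values followed Akr1b1 most closely over the 60 arrays were Bpgm (r = 0.71), Dgki (0.65), Zfp956 (0.64), Repin1 (0.62) and Sos1 (0.57), among 10378 genes. The first 4 are on chromosome 4 and Sos1 is on chromosome 6. All 5 were themselves called higher in congenic rats, by 0.14, 0.25, 0.39, 0.17 and 0.21 on the log2 scale. The line difference was left in this measure and the arrays share animals, so the correlations are a description.

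The size of the line difference was compared between regions with an interaction test. It rests on the same arrays as the line comparison from which the genes were chosen, and its independence from that choice was not tested. The difference of Akr1b1 was 0.36 in frontal cortex and 0.31 in striatum, against 0.15 to 0.18 in the other 3 regions. In congenic rats frontal cortex at 11.75 ± 0.07 was level with amygdala at 11.75 ± 0.10, whereas in NP rats the frontal cortex mean of 11.39 ± 0.06 was below the amygdala mean of 11.58 ± 0.05 (SD, n = 6 each). The interaction of Akr1b1 was not called (limma F = 4.25, unadjusted p = 0.00544, adjusted p = 0.998). It ranked 87 among all probe sets by p. The interaction called 0% of all probe sets at the adjusted threshold, while 726 had an unadjusted p under 0.05. A different size of the line difference in different regions was thus not shown for Akr1b1, nor for the other 6 genes, whose unadjusted p lay between 0.0580 and 0.808.

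All 7 genes differed between regions. The limma F test over the 5 regions, with the animal as a block, called 7 of 7 members, where 93.3% of all probe sets were called, so the count itself does not set them apart. The adjusted p was 4.17e-17 for Aldh1a1, 6.88e-16 for Akr1b1, 3.20e-13 for Adh5, 4.24e-11 for Aldh9a1, 1.28e-07 for Akr1a1, 0.000456 for Aldh2 and 0.00276 for Cat. In bulk tissue, fewer cells of a type and less RNA per cell cannot be told apart. The arrays are as deposited, and after quantile normalization the share of called probe sets that were higher changed to 53.7% in accumbens (37.6% as deposited), 46.8% in striatum (37.7%), 48.0% in hippocampus (60.9%), 48.3% in amygdala (61.0%) and 48.3% in frontal cortex (58.1%). Several small region differences of the 7 genes changed sign or lost their call with it.

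Striatum had the lowest mean of the 5 regions for 6 of the 7 genes, and frontal cortex had it for Aldh2. There 6 of 7 members were called lower than the mean of the other 4 regions and 0 higher, against 43.3% of all probe sets lower and 26.3% higher. The median difference of the 7 was -0.28, and that of all probe sets was -0.07. Aldh1a1 had values of 8.70 to 9.14 (median 8.88) in striatum, and in the other regions its lowest array was 9.40, in frontal cortex. No striatum array overlapped with any array of another region. Its difference was -0.996 ± 0.065 (SE), a 1.99-fold lower level, in 12 of 12 animals (limma, adjusted p = 4.44e-18), and -0.97 without the arrays that stood apart.

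Akr1b1 was 10.99 to 11.47 (median 11.18) in striatum and 11.25 to 11.86 over the arrays of the other regions, so the ranges overlapped between animals. Within animals striatum was lower in 12 of 12, with a difference of -0.37 ± 0.03 (SE; limma, adjusted p = 2.58e-15). Aldh9a1 was 10.17 to 10.45 (median 10.24) in striatum and differed by -0.34 ± 0.04 (SE; limma, adjusted p = 1.55e-10), lower in 12 of 12 animals. Adh5 was 10.73 to 10.92 (median 10.82) in striatum and differed by -0.28 ± 0.03 (SE; limma, adjusted p = 4.18e-13), also lower in 12 of 12 animals. Akr1a1 differed by -0.13 ± 0.02 (SE; limma, adjusted p = 3.25e-06) in 12 of 12 animals. Cat differed by -0.13 ± 0.05 (SE; limma, adjusted p = 0.0122) in 11 of 12 animals, a call that was lost after quantile normalization, at -0.04. Aldh2 was the member without a striatum call, at -0.06 ± 0.04 (SE; limma, adjusted p = 0.248), and at 0.04 after quantile normalization. The striatum differences without the arrays that stood apart were -0.38 for Akr1b1, -0.34 for Aldh9a1, -0.28 for Adh5, -0.14 for Akr1a1, -0.12 for Cat and -0.05 for Aldh2, with the same calls.

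Markers of several cell types differed in striatum, in both directions. Of 7 meningeal genes measured, 6 were called lower there and 0 higher, and the list's mean log2 level over its genes was 7.91 to 9.02 on striatum arrays and 8.33 to 11.11 on arrays of the other regions. Of 7 measured astrocyte genes, 5 were called lower and 0 higher, with a level of 13.01 to 13.15 in striatum and 13.04 to 13.54 elsewhere. Of 7 medium spiny neuron genes, 7 were called higher and 0 lower, with a level of 11.82 to 12.71 in striatum and 8.70 to 12.03 elsewhere. Of 6 oligodendrocyte genes, 5 were called higher and 0 lower, with a level of 13.36 to 13.64 in striatum and 12.64 to 13.63 elsewhere. Microglial and endothelial genes, 7 each, had 1 called higher and 4 lower in either list. The cortex list, with 5 genes tested, had 3 called higher and 0 lower, with a level of 9.59 to 9.92 in striatum and 8.69 to 10.17 elsewhere. No measured marker is at 0 on these arrays, where the lowest value of any probe set is 4.58. Over the 60 arrays Aldh9a1 correlated with the astrocyte level at 0.73, and Aldh1a1 correlated with the meningeal level at 0.64 and with the astrocyte level at 0.61. The 7 tested probe sets ranged from 0.38 (Akr1a1) to 0.73 (Aldh9a1) with the astrocyte level. With the meningeal level they ranged from 0.30 (Cat) to 0.64 (Aldh1a1), and with the microglial level from 0.21 (Cat) to 0.61 (Aldh9a1). With the medium spiny neuron level, Aldh1a1 correlated at -0.59, Akr1a1 at -0.57, Aldh9a1 at -0.52, Akr1b1 1367734_at at -0.51 and Adh5 at -0.49. The other Akr1b1 probe set, 1396360_at, correlated with that level at 0.65. With the oligodendrocyte level, Adh5 correlated at -0.41, Akr1a1 at -0.40 and Akr1b1 at -0.38 (1367734_at) and 0.36 (1396360_at). With the cortex level, Cat correlated at -0.56, Aldh1a1 at -0.52 and Aldh2 at -0.51. The arrays share animals and regions, and the part of these cells in the striatum values was not tested.

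Aldh1a1, Adh5 and Aldh9a1 moved together over the regions, with correlations of 0.77 to 0.80 between them over the 60 arrays, and of 0.23 to 0.47 once region means were subtracted. The promoters of these 3 genes are shown because of their correlations over the 60 arrays. Cat correlated with Aldh9a1 at 0.66 once region means were subtracted, and its promoter is described by counts only. Akr1b1 and Akr1a1 were also called lower in striatum and higher in hippocampus. They are the 250 bases before the gene start on the coding strand in RefSeq's GRCr8 annotation, in which 5 of the 7 genes had an entry; Akr1b1 and Aldh2 had none. Capitals mark matches to 3 short motifs searched on both strands: CCAAT (or ATTGG), the GC box GGGCGG (or CCGCCC) and the TATA-like ATAAAA (or TTTTAT). No matches overlap.
Aldh1a1, chr1:227537370-227537619, plus strand: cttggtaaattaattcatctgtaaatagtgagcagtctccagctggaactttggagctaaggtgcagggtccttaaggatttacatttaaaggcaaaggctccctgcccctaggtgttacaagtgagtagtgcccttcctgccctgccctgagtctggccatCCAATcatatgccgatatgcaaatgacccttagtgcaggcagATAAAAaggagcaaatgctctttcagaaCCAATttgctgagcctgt
Adh5, chr2:229648307-229648556, plus strand: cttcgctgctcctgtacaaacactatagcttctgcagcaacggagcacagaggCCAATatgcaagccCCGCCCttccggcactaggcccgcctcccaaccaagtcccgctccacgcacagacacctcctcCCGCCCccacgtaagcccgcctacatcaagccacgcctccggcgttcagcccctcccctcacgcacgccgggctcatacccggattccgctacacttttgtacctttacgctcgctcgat
Aldh9a1, chr13:82038429-82038678, plus strand: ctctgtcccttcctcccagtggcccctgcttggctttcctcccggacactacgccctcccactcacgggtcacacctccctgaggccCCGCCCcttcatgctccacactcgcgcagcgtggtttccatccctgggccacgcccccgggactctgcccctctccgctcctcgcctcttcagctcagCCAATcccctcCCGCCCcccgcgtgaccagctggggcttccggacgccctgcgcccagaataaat
The Aldh1a1 promoter holds CCAAT at 88 and at 18 bases before the start and ATAAAA at 46 bases before it, and no GC box. The promoter of Adh5 holds CCAAT at 197 bases and CCGCCC at 183 and 120 bases before the start, and that of Aldh9a1 holds CCAAT at 65 bases and CCGCCC at 163 and 54 bases before it. Of 33469 promoters in the same annotation, 34% hold CCAAT, 30.5% the GC box and 18.6% ATAAAA in the same window. The Akr1a1 promoter holds 0 matches of the 3 motifs, and no match says only that these letters are not in this window. The Cat promoter, not printed here, holds 4 matches of CCAAT and 0 of the GC box and of ATAAAA. The GC content was 64.4% for Akr1a1, 46.4% for Aldh1a1, 62.4% for Adh5, 68.4% for Aldh9a1 and 58.8% for Cat, with a median of 51.2% over all promoters. The matches are descriptions of sequence and not evidence of binding.

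Hippocampus or amygdala had the highest mean of the 5 regions for 6 of the 7 genes, and frontal cortex had it for Akr1a1. For Aldh1a1 and Cat, accumbens came between hippocampus and amygdala in that order. In hippocampus 6 of 7 members were called higher and 0 lower, against 33.1% of all probe sets higher and 21.2% lower, and the median difference of the 7 was 0.18, with 0.04 for all probe sets. Aldh1a1 was 9.90 to 10.38 (median 10.10) in hippocampus and exceeded the other regions by 0.49 ± 0.07 (SE; limma, adjusted p = 2.37e-08) in 12 of 12 animals. Aldh9a1 exceeded them by 0.20 (adjusted p = 3.66e-05), Akr1b1 by 0.19 (adjusted p = 4.74e-07) and Adh5 by 0.14 (adjusted p = 1.11e-05), each in 12 of 12 animals (limma). Aldh2 exceeded them by 0.18 (limma, adjusted p = 0.000550) in 11 of 12 animals, and by 0.09, still called, without the arrays that stood apart. Its hippocampus arrays ran from 9.87 to 10.07 (median 9.96) in congenic rats and from 9.90 to 10.45 (median 10.09) in NP rats. The highest NP values, 10.45 in animal 8 and 10.42 in animal 11, were on arrays that stood apart. The line difference of Aldh2 in hippocampus was -0.18 on all arrays and -0.03 without the arrays that stood apart. Akr1a1, at 0.05 (limma, adjusted p = 0.0424), lost its call without those arrays (0.05), after quantile normalization (0.01) and without animal 1, 4, 5, 6, 7, 8 or 9 (0.04 to 0.06). Cat, at 0.10 (limma, adjusted p = 0.0756), was not called, and it was called at 0.12 to 0.13 without animal 5, 7, 8 or 9. It was not called at 0.08 without the arrays that stood apart or at 0.03 after quantile normalization. Without those arrays Aldh1a1 was higher by 0.46, Akr1b1 by 0.18, Aldh9a1 by 0.15 and Adh5 by 0.13, all 4 still called. After quantile normalization Aldh9a1 was at 0.12, Adh5 at 0.08 and Aldh2 at 0.11, also called.

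In amygdala 5 of 7 members were called higher and 0 lower, against 29.1% of all probe sets higher and 18.6% lower. Aldh9a1 was higher there by 0.21 (limma, adjusted p = 1.91e-05), Aldh1a1 by 0.21 (adjusted p = 0.00723), Akr1b1 by 0.20 (adjusted p = 2.82e-07) and Adh5 by 0.16 (adjusted p = 1.53e-06). Akr1a1 was higher by 0.06 (limma, adjusted p = 0.0265), a call lost after quantile normalization (0.04) and without animal 1, 7 or 8 (0.05). Cat and Aldh2, at 0.06 and 0.05, were not called on all arrays. Both were called at 0.10 without the arrays that stood apart, and neither was called after quantile normalization, where Cat stood at 0.01 and Aldh2 at -0.01. Without the arrays that stood apart Aldh9a1 was higher by 0.26, Aldh1a1 by 0.23, Akr1b1 by 0.21, Adh5 by 0.20 and Akr1a1 by 0.07, all 5 called. After quantile normalization Adh5 was at 0.11, still called.

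Accumbens and frontal cortex gave a mixed picture. In accumbens 1 member was called higher and 2 lower, against 23.5% of all probe sets higher and 38.9% lower. Aldh1a1 was the higher one (0.21, limma, adjusted p = 0.00424, in 10 of 12 animals). The lower ones were Akr1b1 (-0.10, limma, adjusted p = 0.00359), which stood at 0.00 without a call after quantile normalization, and Akr1a1 (-0.08, limma, adjusted p = 0.00196), which also lost its call, at -0.02. Aldh9a1 and Cat were not called on all arrays but were when 1 animal was left out, Aldh9a1 without animal 5, at -0.10, and Cat without animal 12, at 0.11. On all arrays Aldh9a1 stood at -0.07, Cat at 0.09, Aldh2 at -0.02 and Adh5 at -0.01. After quantile normalization Adh5 was called higher, at 0.10, and Cat, at 0.21, while Aldh9a1 stood at 0.04 and Aldh2 at 0.08 without a call. Without the arrays that stood apart Aldh1a1 was at 0.18, Akr1b1 at -0.08 and Akr1a1 at -0.06, still called, and Aldh9a1 at -0.08, Cat at 0.04, Adh5 at -0.05 and Aldh2 at 0.01 were not. In frontal cortex 2 members were called higher and 2 lower, against 35.6% of all probe sets higher and 25.7% lower. Akr1a1 was higher by 0.09 (limma, adjusted p = 0.000357), and Akr1b1 was higher by 0.08 (limma, adjusted p = 0.0178), with a value of -0.01 and no call after quantile normalization. By line, the frontal cortex mean of Akr1b1 was 11.75 in congenic rats, level with amygdala (11.75) and hippocampus (11.74). Accumbens (11.52) and striatum (11.36) were lower in congenic rats. In NP rats the frontal cortex mean was 11.39, below amygdala (11.58) and hippocampus (11.59) and above accumbens (11.34) and striatum (11.06). The part of the line difference in this region value was not tested. Aldh2 was lower, with a difference of -0.15 (limma, adjusted p = 0.00257), and so was Cat, with -0.12 (limma, adjusted p = 0.0243). The Akr1b1 call was also lost without animal 1 (0.07) or animal 3 (0.06), and the Cat call without animal 1 (-0.11), 9 (-0.09) or 10 (-0.09) and after centring on array medians (-0.10). Adh5, at -0.01 and not called, was called at -0.10 after quantile normalization, and Aldh9a1, at 0.01, stood at -0.07 without a call. After that normalization Cat was at -0.21, called.

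The order of the regions for Akr1b1 over both lines was amygdala (11.67 ± 0.11), hippocampus (11.66 ± 0.10), frontal cortex (11.57 ± 0.20), accumbens (11.43 ± 0.12) and striatum (11.21 ± 0.18; SD, n = 12 each). Amygdala and hippocampus did not differ beyond their spread, with amygdala higher in 6 of 12 animals. Hippocampus exceeded frontal cortex by 0.09 in 10 of 12 animals, with an SD of the difference of 0.14. Frontal cortex exceeded accumbens in 10 of 12 animals and accumbens exceeded striatum in 11 of 12. For Aldh1a1, the 3 regions between hippocampus (10.11 ± 0.16) and striatum (8.92 ± 0.14) lay at 9.79 to 9.89 and did not differ from one another beyond their spread. Frontal cortex exceeded striatum by 0.87 in 12 of 12 animals. For Cat, neighbours in the order from hippocampus (11.51 ± 0.15) to striatum (11.33 ± 0.08) all differed by less than the SD of the difference. The profiles of the 7 genes are plotted per animal on 1 axis range, and the striatum point of Aldh1a1 is the farthest from an animal's own mean.

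**Figure D4:**
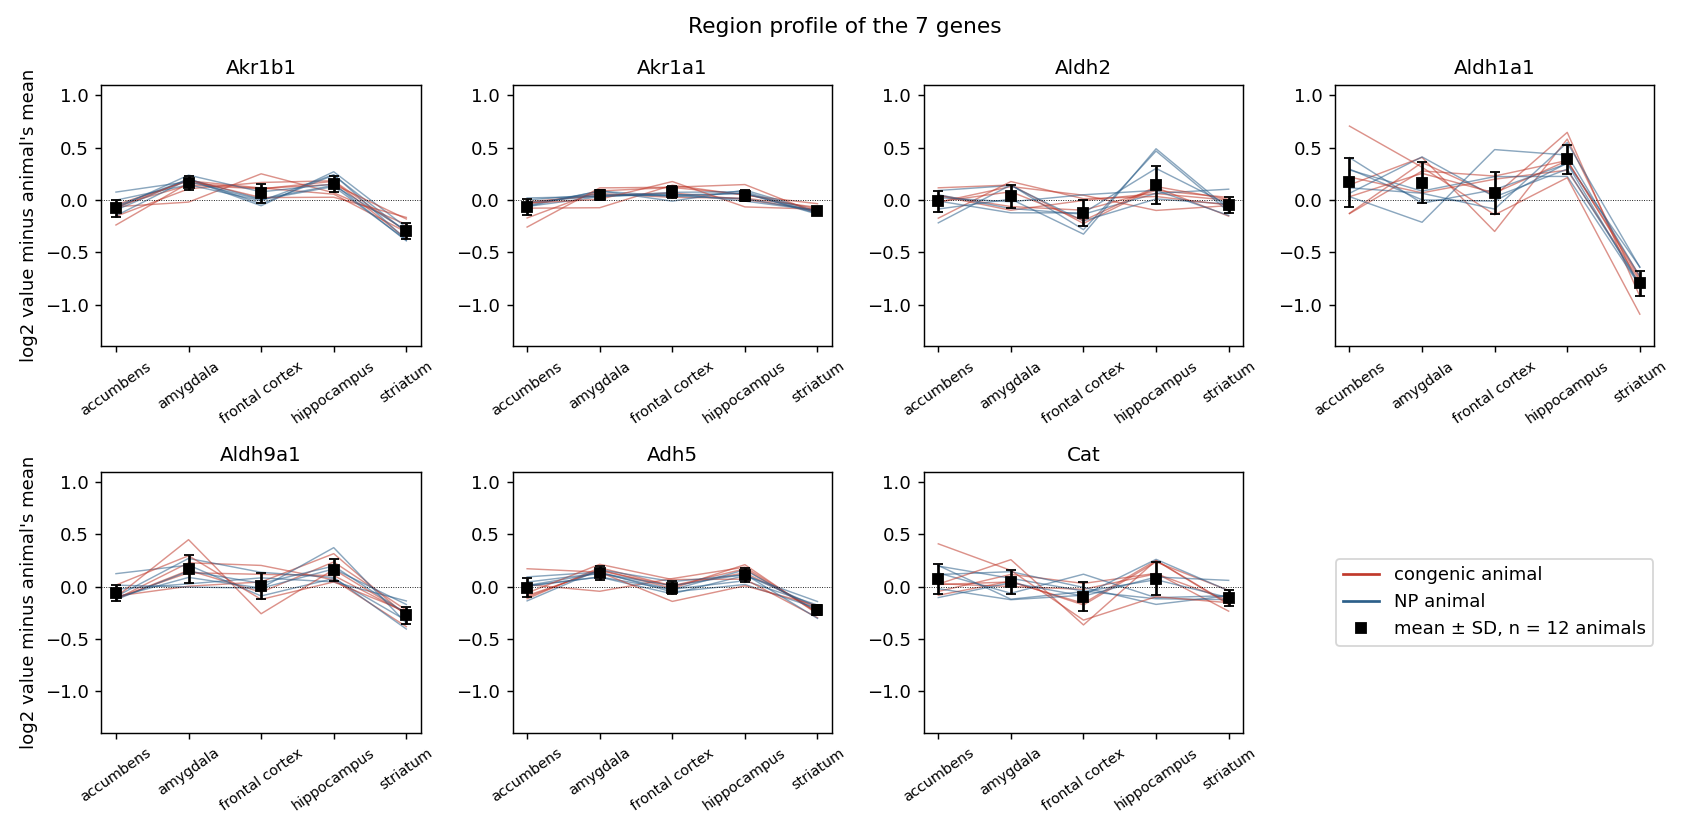
Log2 value minus the animal's mean over its 5 regions (vertical axis) by region for the 7 genes (Akr1b1 from 1367734_at); red lines are congenic rats, blue lines NP rats, and squares are mean ± SD of 12 animals. Aldh1a1 drops in striatum in all 12 animals, congenic and NP.

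Other enzymes of ethanol and aldehyde metabolism were read from a list of 63 further genes. Of these, 9 had no probe set under their symbol, 14 were below the filter and 40 were tested. Of the 11 enzymes listed for ethanol oxidation and acetate use, the 3 that were tested were all acyl-CoA synthetases. The other 8, alcohol dehydrogenases and Cyp2e1, were below the filter (5) or had no probe set under their symbol (3). By limma, 0 of the 40 tested genes were called between the lines in the mean over regions. The share of all probe sets called there was 0.123%, so a count of 0 does not set the list apart. The median difference of the list was -0.01. Without the filter Akr1b7, an aldo-keto reductase related to Akr1b1 with a mean of 5.70, was called higher in congenic rats by 0.20 ± 0.03 (SE), and it is named here after its value was seen. Its mean lies below the filter limit of 7.68, and the lowest value of any probe set is 4.58. Its signal over background was not measured, and the share of all probe sets called without the filter is not given here.

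The region counts of the list are set beside the shares of all probe sets called. In striatum 25 of 40 (62.5%) were called lower and 7 (17.5%) higher, against 43.3% of all probe sets lower and 26.3% higher, with a median difference of -0.22 for the list and -0.07 for all. In hippocampus 21 (52.5%) were called higher and 7 (17.5%) lower, against 33.1% higher and 21.2% lower, with medians of 0.12 for the list and 0.04 for all. After quantile normalization 15 genes of the list were called higher and 9 lower in hippocampus, against 4428 and 4802 of all probe sets. In striatum 8 were then higher and 24 lower, against 5870 and 6674 of all. In accumbens these counts were 18 and 5 (6101 and 5259 of all). They were 9 and 13 in frontal cortex (5291 and 5668 of all) and 14 and 10 in amygdala (4045 and 4325 of all). As deposited, 16 (40%) were higher and 8 (20%) lower in amygdala, against 29.1% and 18.6%. The shares were nearer to those of all probe sets in frontal cortex, where 15 (37.5%) were higher and 12 (30%) lower, against 35.6% and 25.7%. In accumbens 14 (35%) were higher and 10 (25%) lower, against 23.5% and 38.9%. The counts of higher and lower genes without the arrays that stood apart were 9 and 27 in striatum, 20 and 9 in hippocampus, 18 and 10 in amygdala, 15 and 14 in frontal cortex and 14 and 13 in accumbens. The shares of all probe sets called without those arrays are not given here. Acss3, a mitochondrial acyl-CoA synthetase, was the lowest in striatum, at -1.26 ± 0.10 (SE; limma, adjusted p = 2.17e-15). Of the 12 tested aldehyde dehydrogenases 7 were lower in striatum and 1 higher, and of 9 genes that supply or clear aldehydes and peroxide 8 were lower and 0 higher. The reductase classes were split, with 4 lower and 3 higher of 9 aldo-keto reductases and 3 lower and 3 higher of 7 carbonyl reductase and polyol genes.

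Some relatives ran the other way in striatum. Kcnab1, a potassium channel subunit with an aldo-keto reductase fold, was higher by 0.87 ± 0.08 (SE; limma, adjusted p = 1.27e-13) and Cbr3, a carbonyl reductase, by 0.74 ± 0.14 (SE; limma, adjusted p = 7.23e-06). In the other regions the largest called differences of the list were those of Kcnab2 (-0.85), Cbr3 (0.82) and Aldh3b1 (-0.74) in accumbens and of Aldh1a2 (0.83), Cbr3 (-0.62) and Aldh1l1 (0.57) in amygdala. In frontal cortex they were those of Aldh3b1 (0.95), Kcnab1 (-0.84) and Akr1c15 (0.42), and in hippocampus those of Aldh1a2 (-0.75), Kcnab2 (0.69) and Cbr3 (-0.60). Without the arrays that stood apart all of these were still called, and Aldh1a2 stood at 1.13 in amygdala and -1.10 in hippocampus. Aldh1a2 makes retinoic acid from retinaldehyde, as Aldh1a1 does, and the pair went in opposite directions in hippocampus. The plot of the list in striatum shows each tested gene by its enzyme group.

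**Figure D5:**
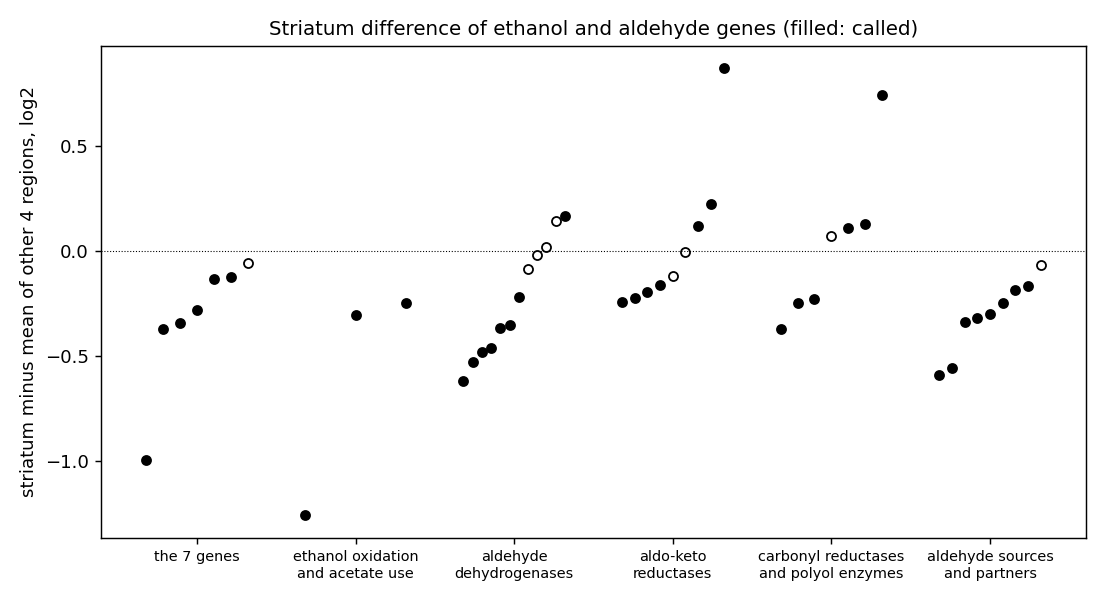
Striatum minus the mean of the other 4 regions (vertical axis, log2) for the 7 genes and the 40 tested genes of the list, grouped by enzyme class and sorted within each; filled points were called. Of the 7 genes 6 are called lower, and of the 40 others 25 are called lower and 7 higher.

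Over the 60 arrays, with region and line left in, the genes most like each member were U2surp, Pdia4 and Unc119 for Akr1b1 (r = 0.77 to 0.79), Arcn1, Mrpl17 and Timm13 for Akr1a1 (0.89 to 0.90) and Mfap4, Lrp10 and Aox1 for Aldh2 (0.63 to 0.65). They were Col4a5, Rreb1 and Dab1 for Aldh1a1 (0.88 to 0.90), Pxmp2, Tmem100 and Plcd4 for Aldh9a1 (0.86 to 0.90), Sec11a, Hspe1 and Tbca for Adh5 (0.89 to 0.92) and Krcc1, Hnrnph3 and Upf3b for Cat (0.81 to 0.85). Pdia4, on chromosome 4, was called higher in congenic rats by 0.21, and the other genes of this set were not called between the lines. Among the members, Aldh9a1 and Cat kept the highest correlation once region means were subtracted (0.66), and Akr1b1 then correlated with the other 6 between -0.32 and 0.20. The arrays share animals and regions, so these correlations are a description.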

How the data were processed

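RNA of 60 samples was measured on Affymetrix rat arrays. The authors deposited 1 table of log2 values for 31099 probe sets; their background correction and normalization method: not given in the sources used here. In all, 57 control probe sets were dropped. Gene symbols came from the platform annotation (20826 probe sets with 1 symbol, 436 with several, 9780 not listed), and chromosomes and gene order from GRCr8, since the arrays' build was not given.

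The 5 values of each animal were averaged and 6 congenic animals compared with 6 NP animals in limma 3.58.1 (R 4.3.3), and again within each region. Regions and the interaction were fitted with the animal as a block, all 2-sided with Benjamini-Hochberg adjustment over 18625 probe sets at a threshold of 0.05. The 7 genes, the lists and the tests were chosen with earlier results of these data known. Named genes were all members, the called genes of the enzyme list in the line fit and its 3 largest per region, 5 neighbours on each side, and the 5 or 3 most correlated genes. Array numbers give the animal, per the labels, so they pair regions and not lines; deviations of arrays from 1 animal correlated at a mean of 0.0139 (120 pairs), and those of different animals at -0.00627 (600 pairs). An array stood apart when its median correlation with its region was under 0.98 or its profile correlation under 0.5. The analysis was tested on simulated data. Promoters and figures used Python 3.11.15, pandas 2.3.3, numpy 2.4.6 and matplotlib 3.10.9. Alternatives covered normalization, filter, prior, block, and leaving out arrays, animals or regions; those of the enzyme list and of the spiny neuron markers were added after seeing the data.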

Additional observations from a re-analysis of the deposited data

Results flagged for a closer look

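In 10 of 96 groups of 6 values, 1 value lay far from the other 5 relative to the group's range; chance does this in about 1 in 20 groups. Of the 10, 6 were on arrays that stood apart from their region. On the array labelled accumbens congenic 9 these were Aldh1a1 (10.50, next value 9.85), Adh5 (11.25, next 11.03) and Cat (11.83, next 11.47) as the highest of their group, and Akr1b1 1396360_at (7.57, next 7.96) as the lowest. Akr1a1 was lowest on amygdala congenic 3 (13.38, next 13.50), and Aldh9a1 was highest on hippocampus NP 11 (10.91, next 10.72). On other arrays, Aldh1a1 was lowest on amygdala congenic 4 (9.68, next 10.06), Cat was lowest on hippocampus congenic 9 (11.32, next 11.56) and Adh5 was lowest on accumbens NP 12 (10.93, next 11.06). In the means over regions, Aldh1a1 was highest in NP animal 8 (9.88, next 9.69). No value of the Akr1b1 probe set 1367734_at was among them.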

How the results depend on the processing

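The line difference of Akr1b1 averaged over regions was called under all 25 alternatives, between 0.20 and 0.25, and lowest without frontal cortex. In frontal cortex it was called under 19 of 19 and in striatum under 11 of 19, and it stayed positive in all 5 regions. With the animal as a random replicate block the mean difference was 0.233 and no count of called members changed, nor did any without a replicate block in the region and interaction fits. Leaving out each animal moved the number of members called in striatum between the lines from 0 to 1, those higher in accumbens from 1 to 2 and those lower there from 2 to 3, those higher in amygdala from 4 to 5, those higher in hippocampus from 5 to 6, those higher in frontal cortex from 1 to 2 and those lower there from 1 to 2. After quantile normalization 3 members were higher and 0 lower in accumbens and 1 was higher in frontal cortex. After centring on array medians 1 was lower in frontal cortex. Without the filter, which adds 1396360_at, 2 were higher in accumbens, 1 lower in amygdala, 1 lower in hippocampus and 1 higher in striatum, and 1 gene of the enzyme list was called between the lines. That gene was Akr1b7, with a mean of 5.70, and its signal over background was not measured.

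Region differences changed sign after quantile normalization for Akr1b1 (0.00357), Aldh2 (0.0799), Adh5 (0.100) and Aldh9a1 (0.0404) in accumbens, Aldh2 (-0.0140) in amygdala, Akr1b1 (-0.00997) and Aldh9a1 (-0.0728) in frontal cortex and Aldh2 (0.0356) in striatum. They did so after centring for Adh5 in frontal cortex (0.00971), and without the arrays that stood apart for Aldh2 in accumbens (0.00798). Leaving out each animal gave ranges across 0 for Aldh2 (-0.0314 to 0.00665) and Adh5 (-0.0349 to 1.52e-05) in accumbens, and for Adh5 (-0.0205 to 0.00435) and Aldh9a1 (-0.0143 to 0.0382) in frontal cortex. The cause was not tested. The signal of 1396360_at over background was not measured, and its mean of 7.61 over all arrays lies just below the filter.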
